A study of Mus musculus with 4 samples.

Results

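The genes described here encode 10 antioxidant enzymes: 5 peroxiredoxins (Prdx1, Prdx2, Prdx3, Prdx5 and Prdx6), catalase (Cat), 2 glutathione peroxidases (Gpx1 and Gpx4) and 2 superoxide dismutases (Sod1 and Sod2). They were taken by name from a table of 23240 genes; all 10 were found, and all 10 had a mean level of at least 1 RPKM (reads scaled by gene length and sequencing depth), as had 9595 genes in all. The measurements were RNA sequencing of leukaemic mouse bone marrow cells on a B6 background. Their labels name an acute myeloid leukaemia with RUNX1 and with FLT3-ITD, a duplication within the receptor FLT3 that keeps it active. All cells were sorted as GFP+, BFP+, CD11b- and Gr1- and were cultured for 22 h with FLT3L, SCF, IL3 and IL11. One arm received 200 nM 4OHT (4-hydroxytamoxifen, the active form of tamoxifen, a ligand commonly used to activate proteins that carry an altered oestrogen receptor domain) and the other an equal volume of ethanol (EtOH), the solvent. Each arm held 1 library from Runx1 delta/delta cells (replicate 1) and 1 from Runx1 delta/+ cells (replicate 2). The labels do not say what 4OHT acts on, what GFP and BFP mark or how many mice a library holds. Nor do they say whether a genotype's libraries came from the same animal. The p-values rest on how far the 2 genotypes differ in their response within these 4 libraries, and on a spread shared by all tested genes. They cannot be taken to measure the spread between mice.

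Superoxide dismutases turn superoxide into hydrogen peroxide, SOD1 mainly in the cytosol and SOD2 in the mitochondrial matrix. Catalase, peroxiredoxins and glutathione peroxidases remove the peroxide; peroxiredoxins are mostly recharged by thioredoxin, and glutathione peroxidases by glutathione, with NADPH as the source of electrons for both. Red cells carry large amounts of peroxiredoxin 2, catalase, glutathione peroxidase 1 and SOD1, which protect haemoglobin from oxidation, and the transcription factor NRF2 (Nfe2l2) switches on many antioxidant genes through antioxidant response elements.

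Of the 10 genes, 4 were called for 4OHT (limma, Benjamini-Hochberg adjusted p under 0.05), against 32.4% of the 9595 genes tested. Prdx1 was higher, and Prdx2, Gpx1 and Cat were lower. All 4 calls were lost when genotype was left out of the fit. The promoters of these 4 are shown because their genes moved, in both directions, within one enzyme group. Each line gives the 250 bases before the start from RefSeq (GRCm38.p6, whereas the submitters' processing notes name mm 9 for the expression table), with motif matches in capitals.
Prdx1, chr4:116685349-116685598, + strand: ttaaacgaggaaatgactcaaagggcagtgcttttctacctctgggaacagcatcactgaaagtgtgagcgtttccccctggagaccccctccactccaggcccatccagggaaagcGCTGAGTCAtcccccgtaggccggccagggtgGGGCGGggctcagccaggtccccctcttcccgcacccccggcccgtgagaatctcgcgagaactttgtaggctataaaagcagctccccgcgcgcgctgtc
Prdx2, chr8:84969372-84969621, + strand: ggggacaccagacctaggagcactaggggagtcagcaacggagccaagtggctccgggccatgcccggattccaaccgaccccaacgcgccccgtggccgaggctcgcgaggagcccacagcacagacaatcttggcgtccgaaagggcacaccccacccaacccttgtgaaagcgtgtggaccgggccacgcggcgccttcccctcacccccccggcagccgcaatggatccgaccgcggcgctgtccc
Gpx1, chr9:108338830-108339079, + strand: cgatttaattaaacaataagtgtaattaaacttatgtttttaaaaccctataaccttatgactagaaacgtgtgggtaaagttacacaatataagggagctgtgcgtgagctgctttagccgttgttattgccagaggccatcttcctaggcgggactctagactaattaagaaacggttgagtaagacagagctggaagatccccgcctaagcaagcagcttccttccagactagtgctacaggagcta
Cat, chr2:103485154-103485403, - strand: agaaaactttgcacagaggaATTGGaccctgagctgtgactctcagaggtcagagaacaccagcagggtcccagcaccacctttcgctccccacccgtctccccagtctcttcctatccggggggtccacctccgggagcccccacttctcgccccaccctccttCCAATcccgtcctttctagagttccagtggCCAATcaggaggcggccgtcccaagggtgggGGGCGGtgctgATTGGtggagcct
The capitals mark the antioxidant response element core TGACNNNGC, the GATA motif AGATAA, the CACCC box CCACACCC, the GC box GGGCGG and the CCAAT box CCAAT, each searched on both strands. In Prdx1 the element core lies from -133 to -125 on the opposite strand (read there as TGACTCAGC), and a GC box lies from -101 to -96. The Cat window held a GC box and 4 CCAAT boxes, while the windows of Prdx2 and Gpx1 held none of the 5 motifs. A window was found for 9 of the genes (12 windows, since Gpx4 has 4 starts). Among them the element core was found in Prdx1 and Sod1, the CACCC box in Prdx3, and the GATA motif in 0. The GC box was found in 7 and the CCAAT box in 4, both motifs added after the promoters were read. These counts are per gene, whereas the shares of all promoters are per promoter. Of all 32851 promoters of this length, 10.2% held the element core, 9.99% the GATA motif, 3.2% the CACCC box, 32.7% the GC box and 33.8% the CCAAT box. A match describes these letters and does not show binding.

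Antioxidant enzyme genes were among the abundant transcripts. The mean over the 4 libraries put 9 of the 10 genes above at least 87.0% of tested genes, led by Sod1 (above 98.9%) and Gpx4 (above 98.7%), while Sod2 stood above 53.7%. RPKM is scaled by gene length, so levels may be set side by side. In EtOH the order began with Prdx2 at 686 ± 242 RPKM (SD, n = 2), Sod1 at 586 ± 32.7, Gpx4 at 476 ± 39.6 and Gpx1 at 442 ± 104. The ranges of Prdx2 and Sod1 overlapped, as did those of Gpx4 and Gpx1; from Prdx3 (156 RPKM) through Cat, Prdx5 and Prdx1 each gene overlapped the next, and Prdx6 and Sod2 stood apart at the bottom. In 4OHT Sod1 (553 ± 37.0 RPKM) and Gpx4 (530 ± 36.4) overlapped at the top. Prdx2, Prdx1, Gpx1 and Prdx3 formed a run in which each overlapped the next, at means from 271 down to 191 RPKM, followed without overlap by Prdx5, Cat, Prdx6 and Sod2. The values rest on an estimated 1467 to 27934 reads per gene and library. These counts were recovered from the RPKM values with the smallest gene length that gave whole reads. From 5 to 30 lengths fitted each gene, so the true counts may be higher.

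**Figure D1:**
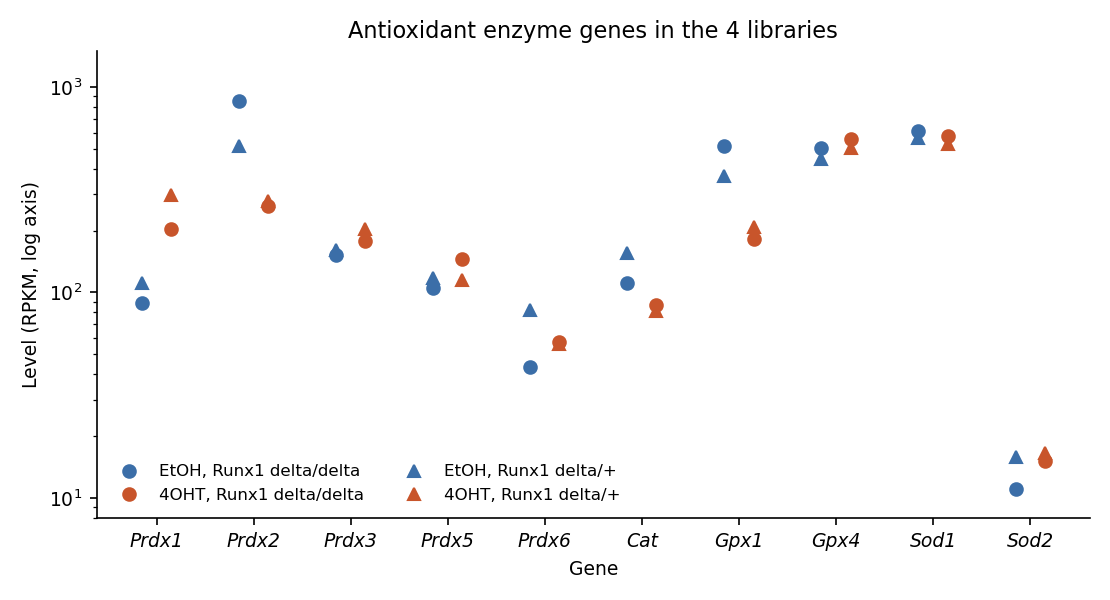
Level of each antioxidant enzyme gene (RPKM, log axis) in each of the 4 libraries; blue is EtOH, orange 4OHT, circles Runx1 delta/delta and triangles Runx1 delta/+. Both 4OHT points lie above both EtOH points for Prdx1 and below them for Prdx2, Gpx1 and Cat.

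Setting 4OHT beside EtOH asks which of these enzymes changed at the RNA level during 22 h of culture. Of the 10 genes, 4 passed (limma, Benjamini-Hochberg adjusted p under 0.05), against 32.4% of the 9595 genes tested; 1 was higher, against 22.2%, and 3 were lower, against 10.2%. The median log2 change of the 10 genes was 0.04 beside 0.16 for all tested genes. The arms did not overlap for 6 of the 10, against 55.4% of tested genes: 3 lay higher in 4OHT (38.4% of tested genes) and 3 lower (16.9%).

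Among the cytosolic peroxiredoxins, Prdx1 encodes a close relative of PRDX2 with the same reaction cycle and is a known NRF2 target. In Runx1 delta/delta cells Prdx1 measured 89.2 RPKM under EtOH against 203 under 4OHT, and in Runx1 delta/+ cells 111 against 297. It was higher under 4OHT in both genotypes, by 2.27-fold and by 2.68-fold, a log2 change of 1.30 (SE 0.13) with a limma adjusted p = 0.00446. Prdx2, the main peroxiredoxin of red cells, measured 857 RPKM under EtOH against 264 under 4OHT in Runx1 delta/delta cells, and 515 against 278 in Runx1 delta/+ cells. The EtOH levels differed between genotypes while both 4OHT levels lay close together, so its fall was 3.24-fold in Runx1 delta/delta and 1.85-fold in Runx1 delta/+, a log2 change of -1.29 (SE 0.21) with a limma adjusted p = 0.0106. The difference in size between genotypes could not be tested, since it leaves no degree of freedom. The ratio of Prdx2 to Prdx1 went from 9.62 to 1.30 in Runx1 delta/delta and from 4.66 to 0.936 in Runx1 delta/+. Prdx2 made up 68.7% and 52.2% of the summed RPKM of the 5 peroxiredoxins in the EtOH libraries, and 31.2% and 29.3% in the 4OHT libraries, while Prdx1 went from 7.15% to 23.9% and from 11.2% to 31.3%.

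**Figure D2:**
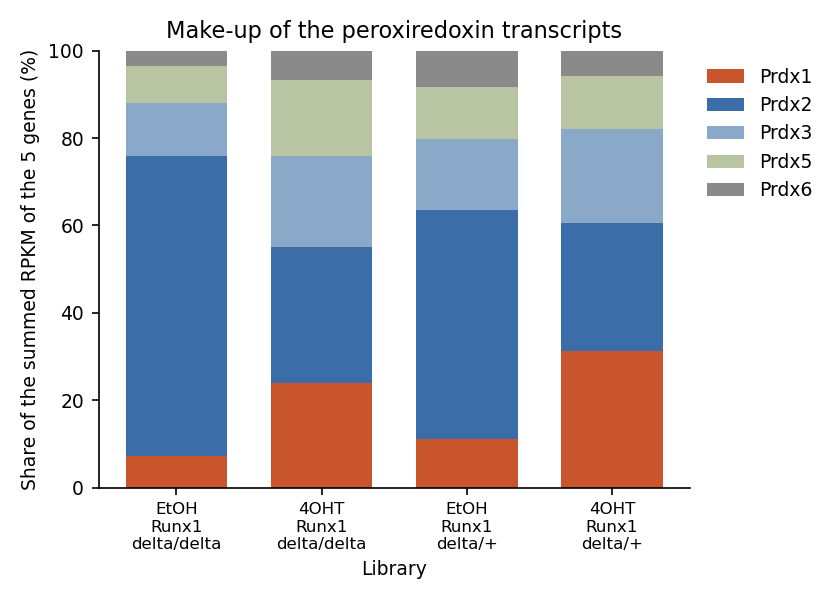
Share of each peroxiredoxin (percent of the summed RPKM of the 5 genes) in each library, stacked to 100. Prdx2 holds 68.7 and 52.2 percent of the EtOH bars and 31.2 and 29.3 percent of the 4OHT bars, where Prdx1 holds 23.9 and 31.3 percent.

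The remaining peroxiredoxins gave no call. Prdx3, the thioredoxin-dependent peroxidase of mitochondria, moved from 152 (EtOH) to 177 RPKM (4OHT) in the Runx1 delta/delta pair and from 160 to 204 in the Runx1 delta/+ pair, so both 4OHT libraries lay above both EtOH libraries. Its log2 change of 0.28 (95% interval -0.02 to 0.59, limma adjusted p = 0.132) missed the threshold. Prdx5, found in mitochondria, peroxisomes and cytosol, moved from 105 to 146 RPKM in the Runx1 delta/delta pair and from 118 to 115 in the Runx1 delta/+ pair. Prdx6, which uses glutathione and also acts as a phospholipase, moved from 43.3 to 57.4 RPKM in the first pair and from 82.3 to 56.0 in the second. For both of these genes the arms overlapped and the genotypes moved in opposite directions, with log2 changes of 0.22 for Prdx5 (95% interval -0.20 to 0.63, limma adjusted p = 0.352) and -0.08 for Prdx6 (95% interval -0.68 to 0.53, limma adjusted p = 0.831). Prdx4, the peroxiredoxin of the endoplasmic reticulum, which is outside the 10 genes, fell from 20.5 to 13.5 and from 30.4 to 13.6 RPKM in the pairs, in the same order (limma adjusted p = 0.0212).

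The glutathione peroxidases GPX1 and GPX4 are both selenoproteins. GPX1 clears soluble peroxides and GPX4 reduces lipid peroxides in membranes. In Runx1 delta/delta cells Gpx1 measured 516 RPKM under EtOH against 183 under 4OHT, and in Runx1 delta/+ cells 368 against 209. The arms did not overlap; the falls were 2.82-fold in the first genotype and 1.77-fold in the other, a log2 change of -1.15 (SE 0.18) with a limma adjusted p = 0.0107. Gpx4 moved from 504 to 556 RPKM in the Runx1 delta/delta pair and from 448 to 505 in the Runx1 delta/+ pair. Both 4OHT values lay above both EtOH values by a narrow margin, with a log2 change of 0.16 (95% interval -0.11 to 0.43, limma adjusted p = 0.304) that became -0.06 with median-ratio scaling. The ratio of Gpx4 to Gpx1 was 0.977 and 1.22 in the EtOH libraries and 3.04 and 2.42 in the 4OHT libraries. Of the other glutathione peroxidases, Gpx3, the secreted form, moved from 3.15 to 9.17 RPKM in the first pair and from 7.99 to 9.51 in the second (limma adjusted p = 0.0828). Gpx5, Gpx6 and Gpx8 were listed at 0 in all libraries, and Gpx2, Gpx7, Sod3 and Prdx6b stayed under 1 RPKM in all of them.

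Catalase breaks down hydrogen peroxide without a thiol partner and sits in peroxisomes of most cells and in the cytosol of red cells. In Runx1 delta/delta cells Cat measured 111 RPKM under EtOH against 87.1 under 4OHT, and in Runx1 delta/+ cells 155 against 81.4. The arms did not overlap; the fall was 1.28-fold in the first genotype and 1.91-fold in the other, a log2 change of -0.64 (SE 0.18) with a limma adjusted p = 0.0443. This call was lost when low values were not filtered out (adjusted p = 0.0806) and with a prior without a trend (adjusted p = 0.0570).

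The superoxide dismutases gave no call for 4OHT. Sod1, the copper and zinc enzyme, moved from 609 to 580 RPKM in the Runx1 delta/delta pair and from 563 to 527 in the Runx1 delta/+ pair. The arms overlapped, and its log2 change of -0.08 had a 95% interval of -0.35 to 0.18 (limma adjusted p = 0.577). Sod2, the manganese enzyme, moved from 11.1 to 15.1 RPKM in the first pair and from 15.7 to 16.5 in the second, again with overlapping arms (log2 change 0.24, 95% interval -0.15 to 0.63, limma adjusted p = 0.278). The Sod1 level was between 31.9 and 54.9 times that of Sod2 in every library.

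**Figure D3:**
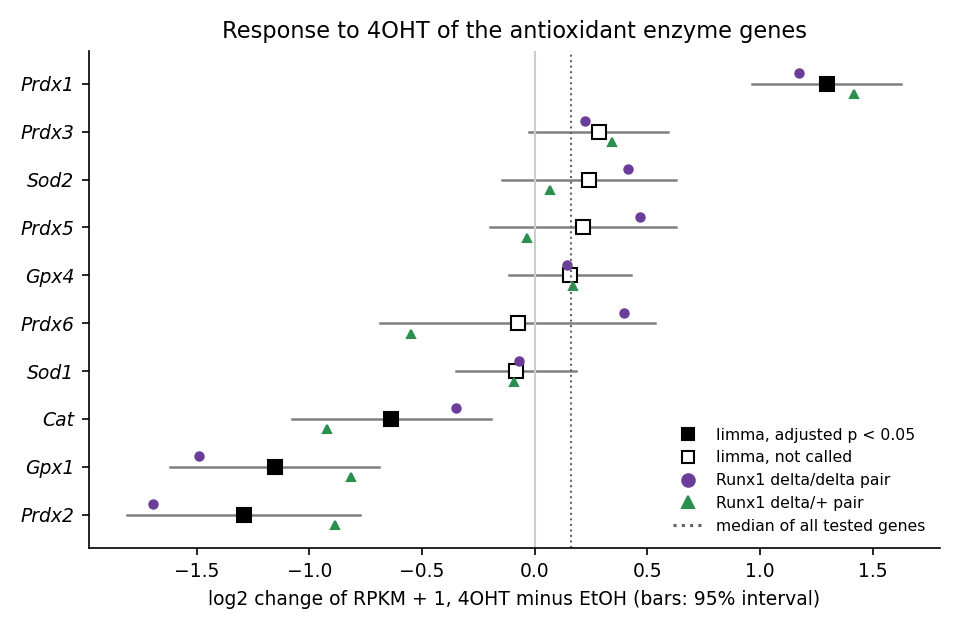
log2 change of each gene between 4OHT and EtOH (x axis, log2 of RPKM + 1) with its 95% interval from limma; filled squares passed at an adjusted p under 0.05, circles and triangles are the Runx1 delta/delta and Runx1 delta/+ pairs, and the dotted line is the median of all tested genes, 0.16. The 3 falls and the 1 rise lie clear of 0 in both pairs, and Prdx5 and Prdx6 have pairs on either side of 0.

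All 4 calls depend on the genotype term: without it (no replicate block) the limma adjusted p was 0.0672 for Prdx1, 0.0778 for Prdx2, 0.0705 for Gpx1 and 0.180 for Cat, and 0 of the 10 genes passed. The log2 change of Cat was -0.40 when EtOH replicate 2 was left out (without the genotype term), and those of the 4 genes kept their direction under every alternative run. The arms did not overlap for these 4 genes, so most alternatives could not have turned the direction. Only median-ratio scaling and the rescaling without red cell genes could have done so.

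Red cell genes were lower in the same libraries. Beside the counts of called genes in this paragraph stand the shares of all tested genes, 22.2% called higher and 10.2% lower with 4OHT. Of 26 measured red cell genes 25 fell and 0 rose, with a median log2 change of -2.45, and their summed level was 36464 to 66823 RPKM in EtOH against 4228 to 5892 RPKM in 4OHT, with none of them at 0 in every library. Prdx2, Gpx1 and Cat fell by less than that median, and Sod1, also abundant in red cells, had the change of -0.08 given above. A median leaves smaller falls on the red cell list too, such as that of Car2 (log2 change -1.31). The part of the red cell genes in the falls was not tested, and in bulk RNA fewer cells of a type and less RNA per cell cannot be told apart. With the RPKM rescaled after leaving out the red cell genes, Prdx2 changed by -1.37, Gpx1 by -1.24, Cat by -0.72 and Prdx1 by 1.21 on the log2 scale, and all 4 passed. This rescaling changes only the total of each library, so it cannot show which cells the reads of these 4 genes came from. The 14 neutrophil and monocyte genes in the table summed to 24.7 to 51.7 RPKM in EtOH and 25.7 to 62.5 RPKM in 4OHT, with 0 called among 5 tested. All 6 B cell genes and 7 of 8 T and NK cell genes stayed under 1 RPKM in all libraries (Ms4a1, Pax5, Ebf1 and Cd3e were among those listed at 0), and 7 of 8 stromal and endothelial genes did so too. The megakaryocyte list had 6 falls and 1 rise among 8 tested (88.2 to 109 RPKM in 4OHT, 192 to 235 RPKM in EtOH), and the mast cell, basophil and eosinophil list 3 rises among 7 (92.3 to 290 RPKM in 4OHT, 193 to 198 RPKM in EtOH). Most of these sums came from a few genes, named after their values were seen. Gata2, on the mast cell list and also a stem and progenitor cell factor, had 180 and 182 RPKM in EtOH and 145 and 63.5 RPKM in 4OHT. Itga2b spanned 38.8 to 78.4 RPKM, Gp1ba 31.3 to 55.1 RPKM and Gp5 10.7 to 76.1 RPKM over the 4 libraries. The part of these lists in the results was not tested.

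The genes whose levels over the 4 libraries ran most like those of the 4 enzymes were sought among 5526 other genes whose mean reached 10 RPKM, by the distance between centred log2 profiles. Nearest to Prdx2 were Rnf123 (distance 0.09), Car2 (0.11, itself on the red cell list) and Eif2ak1 (0.17). Nearest to Gpx1 were H2-K2 (0.07), 1300017J02Rik (0.11) and Slc14a1 (0.13), and nearest to Cat were Fam45a and Rhog (both 0.08) and Gpr56 (0.13). Prdx1 had no neighbour as close: Ccdc84 stood at 0.23, Tnfaip8 at 0.25 and Idh3a at 0.26. With 4 libraries many genes share such a profile, and the distance is a description.

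The thioredoxin system, which recharges peroxiredoxins, changed in both directions: 5 of 12 tested genes rose and 3 fell with 4OHT (median log2 change 0.39). Of all tested genes 22.2% were called higher and 10.2% lower, with a median log2 change of 0.16. These values stand beside each list below. Txnrd1, the cytosolic thioredoxin reductase, rose from 45.7 to 109 RPKM in the Runx1 delta/delta pair and from 44.6 to 89.0 in the Runx1 delta/+ pair (log2 change 1.11, limma adjusted p = 0.00651). Txnrd2, its mitochondrial counterpart, moved the other way, from 34.0 to 8.08 and from 27.3 to 8.37 RPKM in these pairs (log2 change -1.77, limma adjusted p = 0.00320). Txn2, the mitochondrial thioredoxin, rose by 0.74 on the log2 scale, and Txnip, an inhibitor of thioredoxin, fell by 1.07. Without the genotype term 1 of the 8 calls was left, and with no filter on low values 3 rises and 3 falls.

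In the glutathione system 1 of 16 tested genes rose and 2 fell (median -0.01), against 22.2% and 10.2% of all tested genes. Mgst3, a microsomal glutathione transferase with peroxidase activity, fell from 228 to 31.5 and from 93.9 to 20.3 RPKM in the same order (log2 change -2.49, limma adjusted p = 0.00288). Gstt1, a theta class transferase, fell 17.2-fold and 5.86-fold, and Gstp1, the pi class transferase, rose 1.68-fold and 1.46-fold. The NRF2 list had 2 rises and 3 falls among 12 tested (median -0.07). Nqo1, a quinone reductase and textbook NRF2 target, fell from 35.8 to 9.65 and from 34.8 to 5.92 RPKM in these pairs (log2 change -2.08, limma adjusted p = 0.00320), the opposite direction to Prdx1. Hmox1, the inducible haem oxygenase, rose from 3.54 to 9.52 RPKM and from 14.9 to 24.5 RPKM, Blvrb, a biliverdin and flavin reductase abundant in red cells, fell 1.97-fold and 1.44-fold, and Bach1, a repressor at NRF2 sites, fell 1.76-fold and 1.42-fold. With no filter the falls of Blvrb (limma adjusted p = 0.0653) and Bach1 (0.1001) were lost; without the genotype term 0 rises and 1 fall were left on the NRF2 list, and 0 rises and 1 fall on the glutathione list. With median-ratio scaling the NRF2 list had 1 rise and 5 falls. Nfe2l2 itself had a log2 change of -0.08 (limma adjusted p = 0.681).

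NADPH-supplying enzymes rose in 5 of 11 cases and fell in 1 (median 0.43), against 22.2% and 10.2% of all tested genes. The isocitrate dehydrogenase genes Idh1 and Idh2 rose by 1.15 and 0.97 and the mitochondrial transhydrogenase gene Nnt by 0.92 on the log2 scale, while Taldo1, transaldolase of the pentose phosphate pathway, fell by 0.68. With no filter 3 rises and 0 falls were left (limma adjusted p = 0.0728 for Nnt and 0.0514 for Taldo1), and without the genotype term 0 of either. Peroxisome assembly genes rose in 9 of 14 cases with 0 falls (median 0.59), while Cat, the peroxisomal enzyme, fell; 5 rises were called with median-ratio scaling, 2 with no filter and 0 without the genotype term. Pex13, part of the import pore, went from 1.53 to 4.71 and from 2.78 to 6.27 RPKM in these pairs (limma adjusted p = 0.00964), and Pex26 rose 3.33-fold and 2.18-fold (limma adjusted p = 0.0533 with no filter). Selenoprotein synthesis genes, which serve Gpx1 and Gpx4, had 0 rises and 1 fall among 8 (Scly, the selenocysteine lyase, by 0.67), and 0 of 3 copper supply genes passed (1 was called lower with median-ratio scaling). Among 4 tested phagocyte oxidase genes Rac2 rose by 0.61 and Ncf4 fell by 0.94. Of 5 FOXO and sestrin genes, Foxo3, a transcription factor known to drive Sod2 and Cat, fell from 104 to 39.7 and from 62.2 to 25.6 RPKM in these pairs (limma adjusted p = 0.00446), and Foxo1 rose by 0.64; the Foxo1 and Rac2 rises were not called with median-ratio scaling or when rescaled without red cell genes, nor was Rac2 with a prior without a trend. With no filter the calls of Rac2, Ncf4 and Foxo1 were lost (limma adjusted p = 0.0865, 0.0933 and 0.102), and without the genotype term 0 genes of the phagocyte oxidase, selenoprotein, and FOXO and sestrin lists were called.

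**Figure D4:**
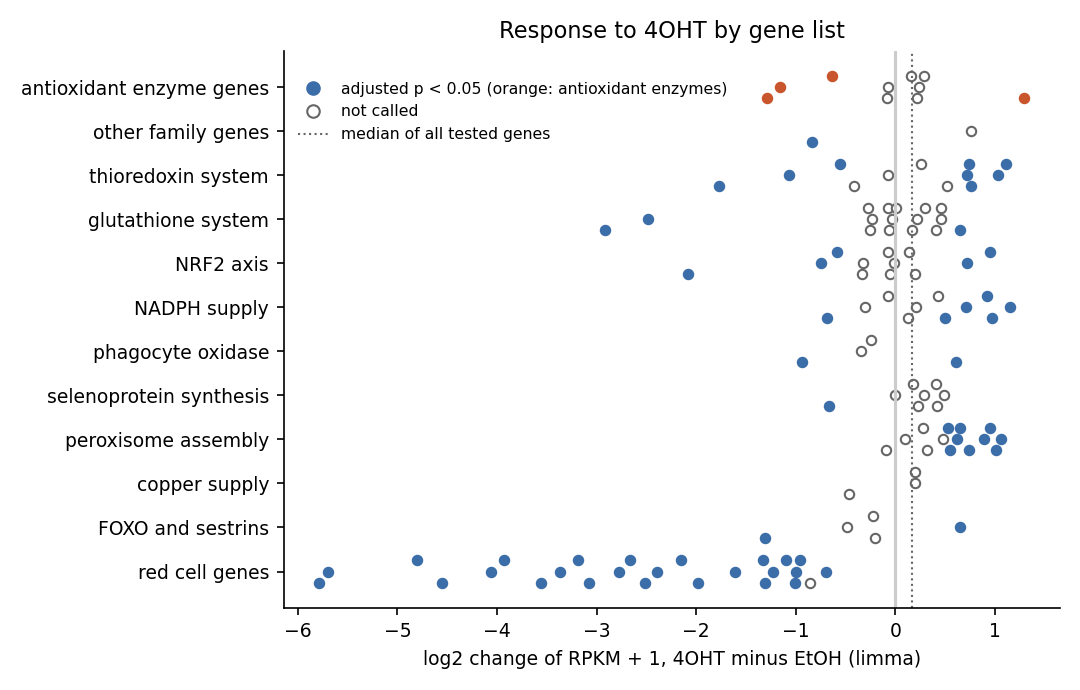
log2 change between 4OHT and EtOH (x axis) of each tested gene, by list; filled points passed at an adjusted p under 0.05 and the dotted line is the median of all tested genes. The antioxidant enzyme genes span -1.29 to 1.30, the peroxisome assembly genes called are all to the right, and the red cell genes reach below -5.

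The comparison of Runx1 delta/delta with Runx1 delta/+ used the same fit. Here 0 of the 10 genes passed in limma, against 11.6% of tested genes (4.68% higher in Runx1 delta/delta and 6.91% lower), and 1 had an unadjusted p under 0.05, against 32.5%. That gene was Prdx1, lower in Runx1 delta/delta in both arms (log2 change -0.43, SE 0.13, limma adjusted p = 0.0934). The genotypes did not overlap for Sod1 and Sod2 only, 2 of 10 against 38.4% of tested genes: Sod1 was the 1 that lay higher in Runx1 delta/delta (17.0% of tested genes did; log2 change 0.13, limma adjusted p = 0.448) and Sod2 the 1 that lay lower (21.4% did; log2 change -0.30, limma adjusted p = 0.244). In the pathway lists Hmox1 was lower in Runx1 delta/delta by 1.54 and Blvrb higher by 0.72 in log2 units, with limma adjusted p = 0.0176 and 0.0392, while Txnip was higher by 0.64 (limma adjusted p = 0.0421). Mgst3 was higher by 0.94, Scly by 0.76 and Foxo3 by 0.67 (limma adjusted p = 0.0420, 0.0351 and 0.039). Gstm1, at a mean of 1.23 RPKM, was lower (log2 change -0.96, limma adjusted p = 0.0441). With no filter these calls were lost (limma adjusted p = 0.0636 for Hmox1, 0.119 for Blvrb and 0.0723 for Txnip), as they were without the treatment term. Rescaled without red cell genes, Blvrb (limma adjusted p = 0.0645), Txnip (0.0586), Mgst3 (0.0581) and Foxo3 (0.055) were lost, and with a prior without a trend Blvrb (0.0596). Of 26 red cell genes 8 were called higher in Runx1 delta/delta and 2 lower, and 3 of 5 neutrophil and monocyte genes were called higher; their part in these differences was not tested. Each genotype has its own replicate number, so it cannot be told apart from the animal or culture.

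Within each replicate number the authors' deposited table sets its 4OHT library against its EtOH library by Kal's test of proportions. Each such test sets 1 library against 1, and the share of all genes passing it was not counted, so no calls are given here. The authors' deposited folds of proportions were 2.42 and 2.78 for Prdx1, -3.04 and -1.79 for Prdx2, -2.65 and -1.70 for Gpx1 and -1.20 and -1.84 for Cat, a negative fold being a fall.

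**Figure D5:**
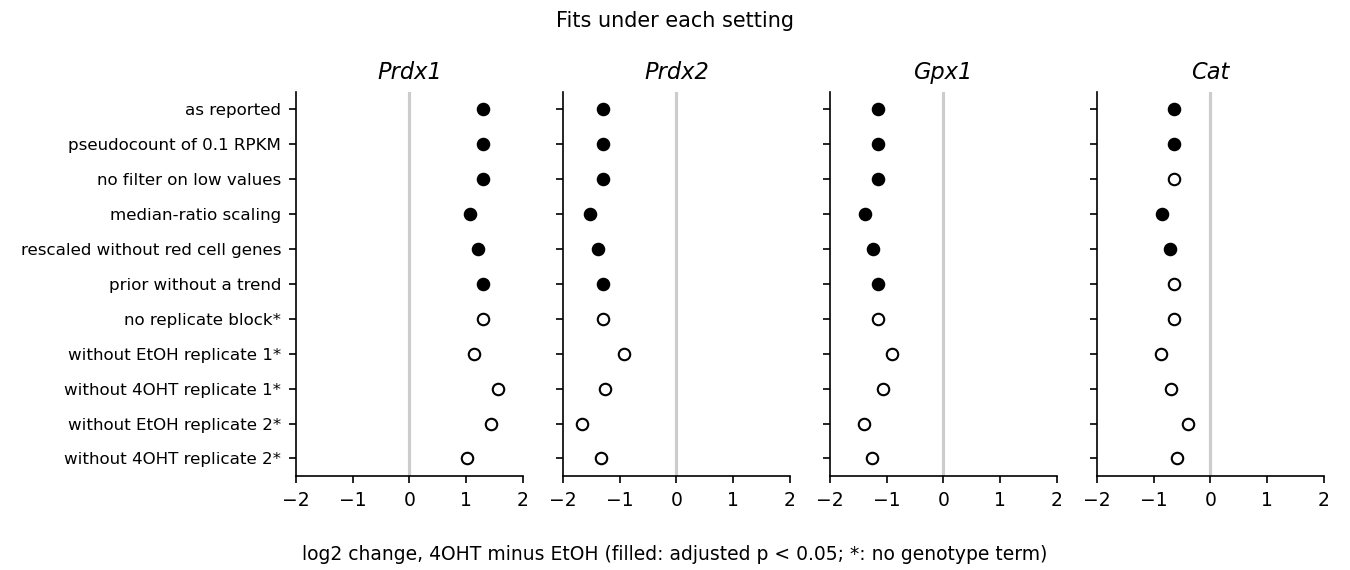
log2 change of the 4 called genes (x axis) under the reported fit and its 10 alternatives; filled points have an adjusted p under 0.05, and settings with an asterisk lack the genotype term. Every point keeps its side of 0, which only median-ratio scaling and the rescaling without red cell genes could have changed. The points with no replicate block are not filled for any of the 4 genes.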

How the data were processed

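RNA was sequenced from 4 libraries of sorted cells; per the labels' protocols a TruSeq or a NEBNext kit was used, with no kit named for single libraries. Per the file headers, the authors deposited RPKM for each library, and a signed fold of proportions (a score that is negative for a fall) and p-values of Kal's Z-test; per the submitters' processing notes the build was mm 9. The aligner, the rule for counting and strand were "not given in the sources used here", so reads of near-identical copies could be split.

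The 10 members, the gene lists and the tests were chosen with earlier results of these data known. The fit was limma 3.58.1 (R 4.3.3) on log2(RPKM + 1) for the 9595 genes whose mean reached 1 RPKM. Fold changes on this scale understate those of low genes. The fit had treatment and genotype as terms, a trended prior, two-sided tests and Benjamini-Hochberg adjustment over all genes. It has 1 residual degree of freedom, and the prior adds 4.375. The fit was also run on simulated data with the same spread for every gene and far fewer changed genes than were called here. That run does not measure the error rate of the calls in these data. Genotype is the replicate number; same-numbered samples deviated together (correlation across genes 0.664). The 2 pairs are fewer than the 3 needed to call the numbers paired, so the fit without the term stands beside the calls.

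Mapped reads, recovered from RPKM steps and transcript lengths, were 34.6 and 36.7 M (EtOH and 4OHT, replicate 1) and 33.7 and 39.4 M (replicate 2). Library correlations ran from 0.869 to 0.964. Named were the 10 members, the other family genes, up to 4 genes of each pathway list with the smallest p for 4OHT and up to 2 for genotype (adjusted p under 0.05), and the 3 nearest profiles of each called member; not every gene so chosen is named. Nfe2l2 was added after its value was seen. The GC and CCAAT boxes were added after the promoters were read; Prdx6 was not among the promoters.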

Additional observations from a re-analysis of the deposited data

Results flagged for a closer look

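The change with 4OHT pointed up in Runx1 delta/delta and down in Runx1 delta/+ for 2 of the 10 genes. For Prdx6 the log2 ratios were 0.40 and -0.55, a difference of 0.947 on the log2 scale. For Prdx5 they were 0.47 and -0.03, a difference of 0.501. With 1 pair per genotype neither difference was tested.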

How the results depend on the processing

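In the comparison of 4OHT with EtOH the calls of Prdx1, Prdx2 and Gpx1 held under the 5 alternatives that kept the genotype term, and that of Cat under 3 of the 5; with no filter on low values, and with a prior without a trend, 2 of the 10 genes were called lower. Over all genes, 2130 were called higher and 983 lower. Without the genotype term (no replicate block) 117 were called higher and 116 lower, and 0 of the 10 genes either way. Leaving out 1 library each (also without that term) gave 0 higher and 3 lower without EtOH replicate 1, 69 and 137 without 4OHT replicate 1, 122 and 112 without EtOH replicate 2, and 126 and 119 without 4OHT replicate 2, with 0 of the 10 genes called. With median-ratio scaling, where the median log2 change of all genes moved from 0.16 to -0.04, 1441 were higher and 1666 lower, and Prdx5 (-0.00465) and Gpx4 (-0.0649) turned negative. Rescaled without red cell genes, 1655 were higher and 1086 lower. Without EtOH replicate 2 the change of Prdx6 turned to 0.38. In the genotype comparison (449 higher, 663 lower) 984 were higher with median-ratio scaling, 298 higher and 1062 lower when rescaled without red cell genes, and 0 higher and 0 lower with no filter, without the treatment term and without each library. There Prdx5 (-0.0447) and Sod1 (-0.0125) turned when rescaled without red cell genes. The genotype fits without each library also lacked the treatment term. In them a genotype left with 1 arm was set against both arms of the other, so changes with 4OHT enter these genotype values. Without EtOH replicate 1 Prdx1 (0.16), Prdx2 (-0.52), Gpx1 (-0.60), Foxo3 (-0.0102) and Mgst3 (-0.47) turned, without 4OHT replicate 2 Prdx1 (0.28), Prdx2 (-0.11), Prdx3 (0.0342), Gpx1 (-0.26) and Mgst3 (-0.14), without 4OHT replicate 1 Prdx5 (-0.14), and without EtOH replicate 2 Cat (0.27). The cause of these changes was not tested.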
